A study of Mus musculus with 14 samples.

Results

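The genes for the nuclear-encoded subunits of the mitochondrial respiratory chain and ATP synthase were examined in mouse embryonic fibroblasts that lack endogenous p65, the RelA subunit of the transcription factor NF-κB, and that had been given back different forms of it. They were chosen by name alone: all probes other than controls whose gene name on the array was *Ndufa*, *Ndufb*, *Ndufc*, *Ndufs* or *Ndufv* with a number, *Uqcr*, *Cox4* to *Cox8*, or *Atp5*. The rule found 102 probes of 76 gene names among 27962 gene names on the array, and 73 of these were kept, since in 1 or more groups their brightest probe passed the scanner's background test on each array. The 3 left out were *Cox4i2*, *Cox8b* and *Cox8c*. The 73 comprised 35 genes of complex I, 7 of complex III, 14 of complex IV and 15 of complex V, together with *Atp5s*, the coupling factor B of ATP synthase (now *Dmac2l*), and *Cox4nb*, which is now named *Emc8* and encodes a protein of the endoplasmic reticulum and no subunit. No probe on the array was named as a mitochondrially encoded subunit.

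All cells were p65(-/-) fibroblasts, infected with a lentivirus, selected with Blasticidin and starved overnight. Cells complemented with wild type p65 (wt), with the triple mutant KTR, K310/314/315R, in which 3 lysines are replaced by arginines, with the double mutant K314/315R, or with the empty vector pTV were measured after 3 h with 30 ng/ml mouse TNFα. Cells with wild type p65 were also measured at 0 h, without TNFα. K314/315R was measured on 2 arrays and each other group on 3, which makes 14, with RNA isolated on different days. Each complemented line stands for 1 infection and selection as far as the sources used here say, and how far another line would differ was not tested. The arrays lay on 4 slides. Slides 1 to 3 held 1 array each of wt at 3 h, KTR, pTV and wt at 0 h, always in the same position, so position and group cannot be told apart. Slide 4 held the K314/315R arrays alone, so slide and cell line cannot be told apart wherever K314/315R was compared.

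The respiratory chain passes electrons from NADH (complex I) and succinate (complex II) through complex III to complex IV, which reduces oxygen, and the proton gradient built on the way drives ATP synthase (complex V). Most subunits are encoded in the nucleus and imported into the mitochondrion, while the others come from mitochondrial DNA. NF-κB is activated by TNFα within minutes, and its known targets are mainly genes of inflammation, immunity and cell survival. Nuclear subunit genes are known for their steady expression in most tissues, and for promoters with sites of NRF-1 and of ETS factors of the GABP type.

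Promoter sequences are shown for *Ndufb4* and *Ndufs7*, the genes that differed between the groups by the overall test described further on, and for *Atp5l*, the gene with the highest fold among those called in K314/315R. The 250 bases before the annotated start are printed 5′ to 3′ on the gene's strand (RefSeq, GRCm38.p6). Capitals mark matches on either strand of a motif of the NRF-1 type (GCGCA, any base, then GCGC) or of the ETS type (CCGGAAG). The windows lie at chr16:37654369-37654618 (minus strand), chr10:80249199-80249448 (plus strand) and chr9:44920743-44920992 (minus strand).
Ndufb4: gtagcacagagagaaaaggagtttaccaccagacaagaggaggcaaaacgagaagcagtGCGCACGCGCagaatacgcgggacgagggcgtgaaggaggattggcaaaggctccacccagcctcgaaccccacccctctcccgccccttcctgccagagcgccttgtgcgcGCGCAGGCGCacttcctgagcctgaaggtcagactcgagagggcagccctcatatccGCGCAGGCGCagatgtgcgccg
Ndufs7: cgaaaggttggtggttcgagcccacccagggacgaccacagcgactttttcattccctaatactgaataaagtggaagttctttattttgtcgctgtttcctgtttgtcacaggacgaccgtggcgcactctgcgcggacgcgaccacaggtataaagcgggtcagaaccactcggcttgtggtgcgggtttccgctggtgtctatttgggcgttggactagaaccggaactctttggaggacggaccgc
Atp5l: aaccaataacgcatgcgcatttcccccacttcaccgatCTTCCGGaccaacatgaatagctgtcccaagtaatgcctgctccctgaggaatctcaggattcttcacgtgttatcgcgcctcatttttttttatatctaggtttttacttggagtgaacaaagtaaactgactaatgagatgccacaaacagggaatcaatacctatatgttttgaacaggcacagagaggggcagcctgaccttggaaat
The *Ndufb4* window held 3 matches of the NRF-1 type, which begin 191, 79 and 22 bases before the start. The *Atp5l* window held 1 match of the ETS type, 212 bases before the start, and the *Ndufs7* window held neither run of letters. Promoter windows were found for 60 of the 71 subunit genes of complexes I to V, with 65 windows in all because some genes had more than 1 start. The NRF-1 type was present in 12 of 65 windows (18.5%, against 5.18% of the 21263 windows of all protein-coding genes), and the ETS type in 11 (16.9% against 8.98%). A CCAAT box was present in 25 windows (38.5% against 35.4%), and the κB consensus of NF-κB in 5 (7.69% against 7.91%). The median GC content was 56% in the subunit windows and 55.6% in all. Genes with and without a match were found among those called below, and a match of letters is a description of the sequence and not a bound site.

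The values reported are log2 signals of a probe minus the array's own 75th percentile on that scale, read in 1 colour. They compare a gene between arrays, and they do not compare a gene with another. That percentile lay between 967 and 1442 intensity units, and per array 49.9% to 57.7% of spots exceeded background clearly. All 73 genes were well above background on every array on which they had a value, and none was saturated. Of the 9 fibroblast markers, 8 were well above background on all 14 arrays and *Pdgfrb* on 13, while all 3 endothelial markers, 2 of 4 epithelial, 2 of 4 leukocyte, 4 of 6 muscle and 3 of 4 adipocyte markers were so on none. The exceptions in these lists were *Fabp4*, *Tnnt2* and *Krt8* (14 arrays), *Csf1r* (13), *Myod1* (10), *Cd68* (6) and *Krt18* (5), and their part in the results was not tested. As a check of the labels, the p65 targets *C3* and *Saa1* were 141-fold and 74.0-fold higher in wt than in pTV cells at 3 h (limma, adjusted p = 9.78e-10 and 1.49e-08). Outlier spots left 18 values of 12 of the genes out, 11 of them on the KTR arrays, and the array with the most outlier spots was KTR replicate 3, with 326. The 6 spike-in controls had median log2 signals of 3.11 to 4.02 on slides 1 to 3 and of 4.80 to 5.09 on slide 4.

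Over the 5 groups, the 73 genes varied little. The median SD within groups was 0.119 on the log2 scale, against 0.187 over all tested probes, and the median range of the 5 group means was 0.268 against 0.464. The group means spanned more than 1.5-fold in 1 of the 73 genes, against 37.3% of all tested probes. That gene was *Cox6b2*, the testis form of subunit 6b, whose range of 1.09 stood beside a within-group SD of 0.636. By limma's overall F test across the groups, 2 of the 73 genes were called at an adjusted p under 0.05, against 29.7% of all tested probes, and 11 had an unadjusted p under 0.05. Both were subunits of complex I, *Ndufb4* (adjusted p = 0.0251) and *Ndufs7* (adjusted p = 0.0397). The next in order were *Ndufb9* (0.0521), *Ndufa1* (0.0786) and *Atp5l* (0.0857). Of the lists described at the end, the same test called 2 of 75 mitochondrial and 6 of 85 cytosolic ribosomal protein genes. It called 1 of 13 citrate cycle genes and 8 of 38 proteasome genes. With the replicate number, which is the slide on slides 1 to 3, as a block, the count among the 73 genes was 11, against 50.2% of all probes. The count was 7 without KTR replicate 1, 2 without KTR replicate 3, 0 without pTV replicate 1 or 2 or wt 0 h replicate 3, and 1 without each of the other 9 arrays.

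**Figure D1:**
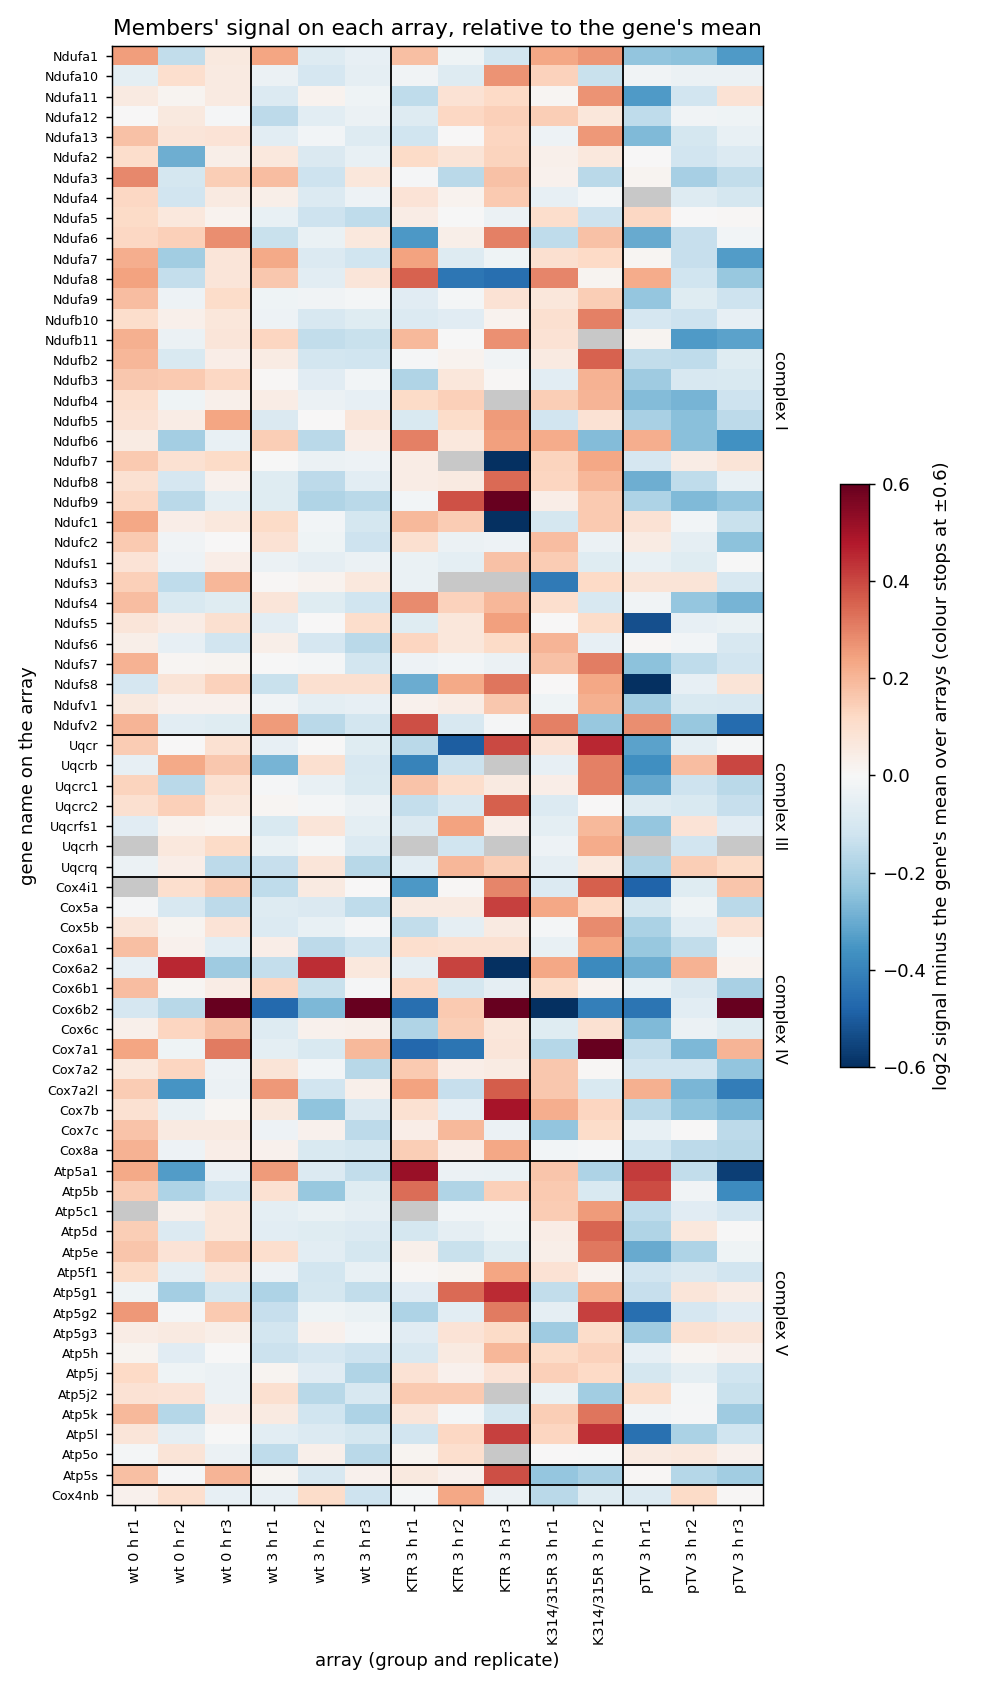
Log2 signal of 72 of the 73 genes (rows, by complex) on each of the 14 arrays (columns, by group and replicate), minus the gene's mean over the arrays. Red is above and blue below that mean, grey cells are values left out, and the colour stops at ±0.6. The pTV columns are mostly blue, and *Ndufb7* and *Ndufc1* are dark blue on KTR replicate 3.

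The 5 groups did not share the extremes evenly. The mean of pTV was the lowest of the 5 group means in 46 of the 73 genes (63%, against 27.8% of all tested probes), and it was the highest in none (28.7% of all probes). The mean of K314/315R was the highest in 37 genes (50.7% against 22.9%), that of KTR in 23 and that of wt at 0 h in 12. The mean of wt at 0 h was the lowest in no gene, against 20.8% of all probes. These shares are a description, since the genes share their arrays. For each array the deviation of each gene from the mean of its 5 group means was taken. The median over the 73 genes lay between -0.14 and -0.09 in pTV and between -0.07 and -0.02 in wt at 3 h. It lay between 0.01 and 0.12 in KTR, at 0.03 and 0.12 in K314/315R, and between -0.02 and 0.12 in wt at 0 h. The pTV arrays were thus below all 11 others, and the arrays of wt at 3 h were below those of both mutants, while the median over all tested probes stayed between -0.03 and 0.09 on every array. These counts and medians are those of the fit as reported. After another background correction (normexp) the median log2 fold change of wt over pTV was -0.07, with 58 of 73 genes lower in wt. The subunit genes are bright, with a median level of 4.87 against -0.28 for all tested probes. The 897 probes at least as bright as the median subunit gene moved in the same direction in 6 of the 7 comparisons, and by less in each of these, as is given beside the comparisons below. That was in the fit as reported. After normexp the direction was shared in 7, with smaller moves in 4. After quantile normalization it was shared in 5, with smaller moves in 4.

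To ask whether the subunit genes depend on p65, wt was compared with pTV at 3 h. No subunit gene was called (limma, 0 of 73, against 14.8% of all tested probes), and 2 had an unadjusted p under 0.05 (26.3% of all probes). The arrays of the groups did not overlap in 16 of 71 genes with all values, higher in wt in 13 (16.2% of all probes) and lower in 3 (18.3%). On all 3 slides, 32 of 71 genes were higher in wt (27.8% of all probes) and 7 lower (35.4%). The median differences on slides 1, 2 and 3 were 0.11, 0.03 and 0.03. The median log2 fold change was 0.09, against -0.03 over all tested probes and 0.02 over the bright probes, and it was -0.07 after another background correction (normexp). In 65 of the 73 genes the 95% confidence interval of the fold change lay within 1.5-fold either way, against 55.5% of all probes. *Ndufa1*, a small accessory subunit in the membrane arm of complex I, gave the largest difference. Its log2 signals were 5.46, 5.15 and 5.17 in wt and 4.99, 4.98 and 4.88 in pTV, without overlap, with a log2 fold change of 0.31 ± 0.12 (SE, n = 3 and 3; adjusted p = 0.126). With the replicate number as a block it was the only subunit gene called, at an adjusted p of 0.0365, or 0.0219 in a fit of the 12 arrays of slides 1 to 3 alone, in which 28.4% of all probes were called.

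After 3 h of TNFα in wt cells no subunit gene passed the test, and most means were slightly lower. The mean at 3 h was below that at 0 h in 67 of 73 genes, 32 of 35 in complex I, 7 of 7 in complex III, 12 of 14 in complex IV and 14 of 15 in complex V. The median log2 fold change was -0.10, against -0.04 over all tested probes and -0.05 over the bright probes (-0.40, 0.07 and -0.38 after normexp). The log2 fold changes ran from -0.22 in *Ndufa6* to 0.14 in *Cox7a2l*. No gene was called by limma (0 of 73, against 4.68% of all probes), and 0 had an unadjusted p under 0.05, against 17% of all probes. The arrays did not overlap in 19 of 70 genes, all lower at 3 h (17% of all probes were), and in no gene higher (13.5%). On each slide by itself the median difference was -0.12, -0.04 and -0.11, and 41 of 70 genes were lower on all 3 slides, against 34.7% of all probes, while 2 were higher on all 3. In 67 of 73 genes the interval lay within 1.5-fold, against 61.7% of all probes. The cytosolic ribosomal proteins, 85 tested genes, had a median of -0.10, with 73 lower, and 0 were called. The subunits of succinate dehydrogenase (complex II), which the name rule does not include, were lower in 4 of 4, with a median of -0.04 and 0 called.

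The mutants were then set against wt at 3 h, to ask whether loss of the acetylated lysines changes the subunit genes. In KTR no gene was called by limma (0 of 73, against 0.235% of all probes), and 6 had an unadjusted p under 0.05 (9.19% of all probes), all higher in KTR. These were *Ndufb9* (log2 fold change 0.47), *Atp5g1* (0.39), *Cox5a* (0.28), *Ndufs4* (0.25), *Ndufb8* (0.24) and *Cox8a* (0.20), with adjusted p from 0.272 to 0.531. The median over the 73 genes was 0.09, against 0.06 over all probes and 0.08 over the bright probes (0.41, -0.04 and 0.42 after normexp). On slides 1, 2 and 3 the median was 0.03, 0.10 and 0.19, and 34 of 64 genes were higher in KTR on all 3 slides, against 31.2% of all probes. The arrays did not overlap in 16 of 64 genes, all higher in KTR (9.19% of all probes were), and in no gene lower (5.06%). In 62 of 73 genes the interval lay within 1.5-fold, against 68.3% of all probes. Without KTR replicate 1, 2 genes were called, 1 in each direction. In K314/315R also no gene was called by limma (0 of 73, against 2.21% of all probes). There 11 genes had an unadjusted p under 0.05 (17.4% of all probes), all higher, and 6 of these belong to ATP synthase, *Atp5l* (0.37), *Atp5k* (0.32), *Atp5d* (0.27), *Atp5c1* (0.25), *Atp5h* (0.24) and *Atp5j* (0.21). Their adjusted p lay between 0.163 and 0.253, and slide 4 and the mutant cannot be told apart. The arrays did not overlap in 21 of 72 genes, higher in 20 (19% of all probes) and lower in 1 (17.2%). The median over the 73 genes was 0.12, against 0.02 over all probes and 0.07 over the bright probes (0.36, -0.06 and 0.33 after normexp). By complex it was 0.10 in I, 0.14 in III, 0.09 in IV and 0.20 in V, and the complexes were not tested against each other.

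In the fit without a block, called differences were found only between the mutants and the empty vector, and all were rises of less than 1.5-fold. In KTR over pTV at 3 h, limma called 4 of the 73 genes, all higher, against 15.2% of all probes (9.27% higher). Without regard to adjustment, 16 had a p under 0.05, against 27.9% of all probes. The 4 genes called were *Ndufb9*, *Ndufs4* and *Ndufb4* of complex I and *Cox8a* of complex IV. *Ndufb9*, an accessory subunit of the membrane arm, had log2 signals of 6.52, 6.92 and 7.17 in KTR, 6.35, 6.27 and 6.30 in pTV, 6.46, 6.35 and 6.37 in wt at 3 h, 6.57 and 6.69 in K314/315R, and 6.66, 6.37 and 6.48 in wt at 0 h. The KTR arrays lay above all pTV arrays and were spread over more than any other group, with an SD of 0.329. The log2 fold change was 0.56 ± 0.14 (SE, n = 3 and 3; adjusted p = 0.0184), and the differences within slides 1, 2 and 3 were 0.17, 0.64 and 0.87. *Ndufs4*, an accessory subunit whose loss causes Leigh syndrome, read 4.83, 4.68 and 4.74 in KTR and 4.52, 4.31 and 4.26 in pTV. Its groups did not overlap, the within-slide differences were 0.30, 0.37 and 0.48, and the log2 fold change was 0.38 ± 0.11 (adjusted p = 0.0349).

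*Ndufb4*, another accessory subunit of the membrane arm, was the 1 gene called over pTV in both mutants, which share those pTV arrays. It read 4.65 and 4.68 in KTR, where the third value was left out, 4.68 and 4.74 in K314/315R, and 4.27, 4.26 and 4.41 in pTV. In wt cells it read 4.58, 4.50 and 4.49 at 3 h and 4.64, 4.51 and 4.57 at 0 h. All pTV arrays were below all others, and wt lay between pTV and the mutants. The log2 fold change over pTV was 0.35 ± 0.09 in KTR (adjusted p = 0.0235), 0.40 ± 0.09 in K314/315R (adjusted p = 0.00855) and 0.21 ± 0.08 in wt (adjusted p = 0.125). KTR and K314/315R differed by -0.04 ± 0.10 (95% interval -0.26 to 0.17, adjusted p = 0.844). *Cox8a*, the ubiquitous form of subunit 8 of cytochrome c oxidase, read 6.66, 6.55 and 6.75 in KTR and 6.39, 6.36 and 6.35 in pTV, without overlap, and rose by 0.29 ± 0.09 (adjusted p = 0.0477).

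The median over the 73 genes in KTR over pTV was 0.14 (0.34 after normexp and 0.08 after quantile normalization). In the fit as reported it was 0.02 over all probes and 0.09 over the bright probes. On slides 1, 2 and 3 the median over the 73 genes was 0.12, 0.13 and 0.22. The means were higher in KTR in 62 of 73 genes, and 43 of 63 genes were higher on all 3 slides, against 32.4% of all probes. The arrays did not overlap in 21 of 63 genes, all higher in KTR (16.5% of all probes were), and in no gene lower (12.1%). In 57 of 73 genes the interval lay within 1.5-fold, against 54.3% of all probes. The count of calls depended on single arrays and on the model. It was 0 without pTV replicate 2, 1 without KTR replicate 3 or without pTV replicate 3, and 2 without wt 3 h replicate 2. Without KTR replicate 1 it was 5, of which 3 were higher and 2 lower. It was 0 after normexp background correction, 0 when only the arrays of KTR and pTV were fitted, 1 with no filter on dim probes, 2 after quantile normalization and 7 with the mean of a gene's probes. It was 12 when the replicate number was a block, against 25% of all probes, with the slide as random effect it was 13, and in the fit of slides 1 to 3 alone it was 14, against 29.9% of all probes. These 14 were all higher, 9 in complex I, 3 in complex IV and 1 each in complexes III and V, with *Ndufs4* at an adjusted p of 0.00164 and *Ndufb9* at 0.0218. Genes called with the block and not in the fit without it included *Ndufb11*, *Ndufb5*, *Ndufb8* and *Cox7b*.

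**Figure D2:**
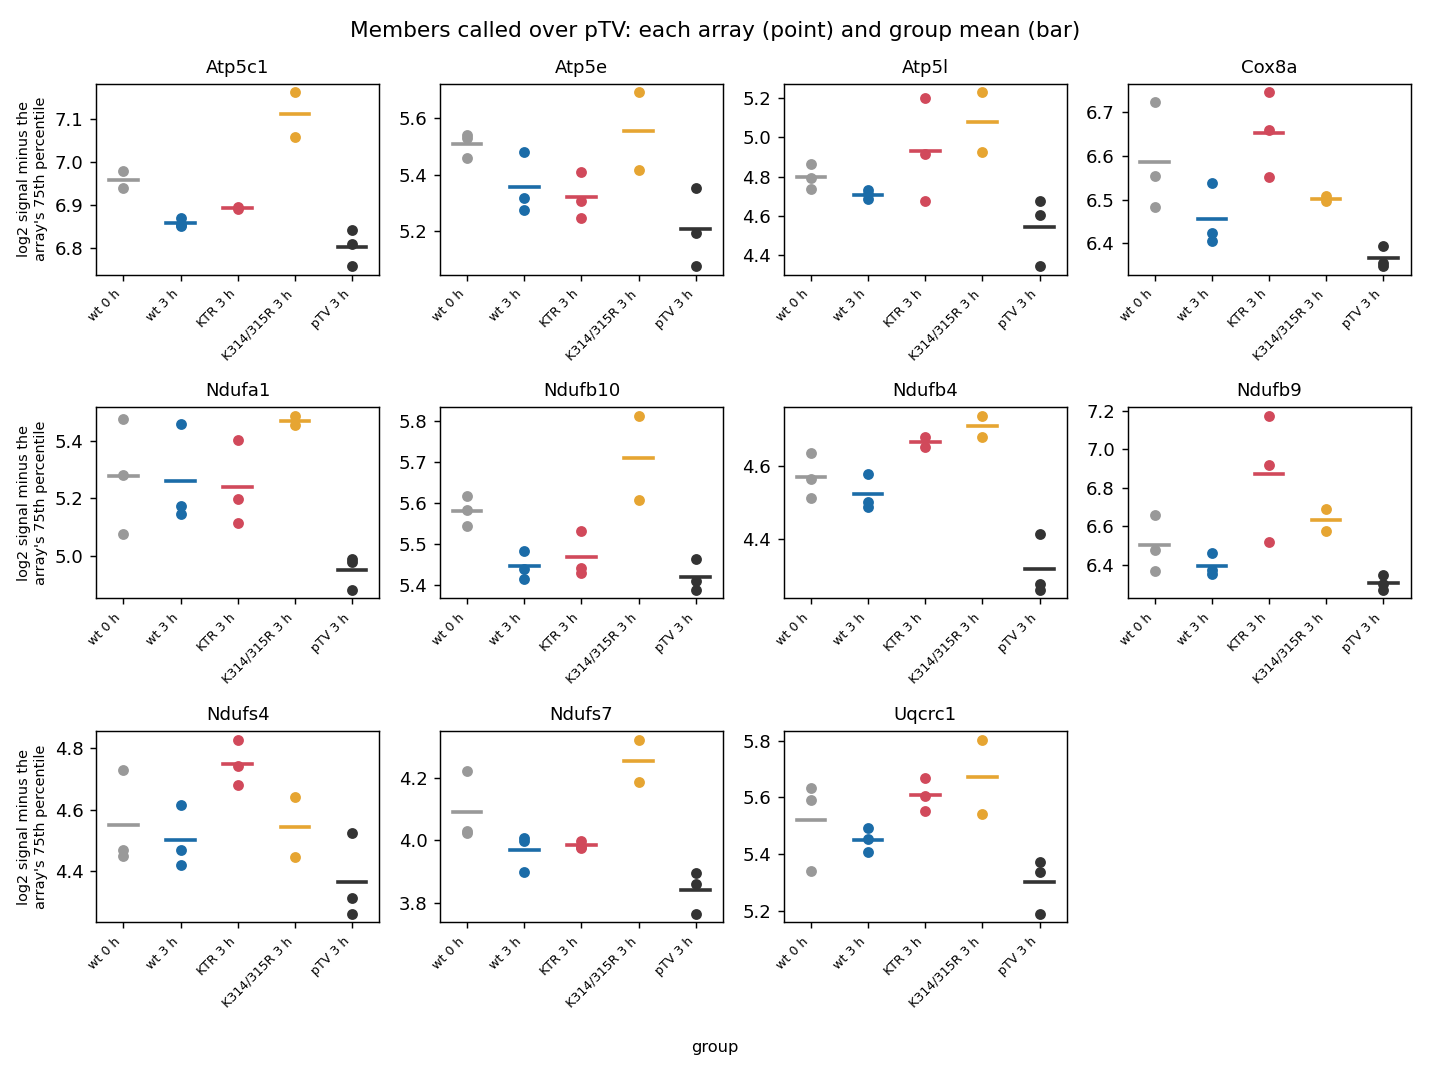
Log2 signal relative to the array's 75th percentile for the 11 genes called in KTR or K314/315R over pTV, by group. Points are arrays and bars are group means, and each gene has its own vertical axis. In *Ndufa1* and *Ndufb4* all 3 pTV points lie below all others, and in *Ndufb9* the KTR points spread from 6.52 to 7.17.

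In K314/315R over pTV, limma called 8 of the 73 genes, all higher, against 26% of all probes (12.5% higher). With no adjustment, 18 had a p under 0.05, against 37.9% of all probes. The genes called were *Ndufa1*, *Ndufs7*, *Ndufb4* and *Ndufb10* of complex I, *Uqcrc1* of complex III, and *Atp5l*, *Atp5e* and *Atp5c1* of complex V. *Atp5l*, the g subunit of the membrane part of ATP synthase, read 4.92 and 5.23 in K314/315R and 4.34, 4.60 and 4.67 in pTV. In the other groups it read 4.68, 4.92 and 5.20 in KTR, 4.73, 4.71 and 4.68 in wt at 3 h, and 4.87, 4.74 and 4.79 at 0 h. K314/315R lay above pTV and above wt on both arrays but overlapped with KTR, and the log2 fold change over pTV was 0.54 ± 0.15 (SE, n = 2 and 3; adjusted p = 0.0233).

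*Ndufa1* read 5.45 and 5.49 in K314/315R, 5.40, 5.20 and 5.11 in KTR, and 5.47, 5.08 and 5.28 in wt at 0 h, beside the values of wt at 3 h and pTV given above. All pTV arrays were below all others, and K314/315R exceeded pTV by 0.52 ± 0.14 on the log2 scale (adjusted p = 0.0157). *Ndufs7*, a core subunit that carries an iron-sulphur cluster next to the quinone site, read 4.187 and 4.320 in K314/315R and 3.768, 3.861 and 3.895 in pTV. It read 3.981, 3.998 and 3.977 in KTR, 4.009, 3.999 and 3.900 in wt at 3 h and 4.221, 4.025 and 4.030 at 0 h. K314/315R was above pTV, KTR and wt at 3 h but overlapped with wt at 0 h, and the log2 fold change over pTV was 0.41 ± 0.09 (adjusted p = 0.00758), over wt 0.28 ± 0.09 (adjusted p = 0.143). The other calls were *Uqcrc1*, a core protein of complex III (0.37), *Atp5e*, the ε subunit (0.35), *Atp5c1*, the γ subunit of the rotating stalk (0.31), and *Ndufb10* (0.29), with adjusted p from 0.0257 to 0.0482.

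The median over the 73 genes in K314/315R over pTV was 0.19, with 63 of 73 means higher. It was 0.27 after normexp (66 higher) and 0.11 after quantile normalization (53 higher). In the fit as reported the median was -0.01 over all probes and 0.07 over the bright probes. The arrays did not overlap in 34 of 70 genes, higher in 33 (24.2% of all probes) and lower in 1 (25.5%). For 49 of 73 genes the interval lay within 1.5-fold, against 40.9% of all probes. The count of calls was 0 without K314/315R replicate 2, 3 without pTV replicate 1 and 4 without pTV replicate 2. It was 0 after normexp background correction, 1 when only the arrays compared were fitted, and 3 after quantile normalization or with no filter on dim probes. It was 3 with the slide as random effect, and 18 when the replicate number was a block, against 39.9% of all probes, although the numbers of K314/315R were not shown to pair with those of the other groups. Between KTR and K314/315R limma called no gene (0 of 73, against 5.41% of all probes). At an unadjusted p under 0.05 there were 2 genes higher in KTR and 5 lower (21.4% of all probes). The arrays did not overlap in 14 of 63 genes, higher in KTR in 6 (18.6% of all probes) and lower in 8 (12.2%), and in 57 of 73 the interval lay within 1.5-fold. With the replicate number as a block, *Cox6b2* (0.74, adjusted p = 0.0292) and *Ndufs4* (0.24, adjusted p = 0.0497) were called higher in KTR, against 15.5% of all probes, and without KTR replicate 1 the count was 2, both lower in KTR. The difference in *Cox6b2* was 1.09 ± 0.51 without a block (95% interval -0.03 to 2.21, adjusted p = 0.245), from values of -3.26, -2.65 and -1.51 in KTR and -3.91 and -3.22 in K314/315R, which overlapped.

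**Figure D3:**
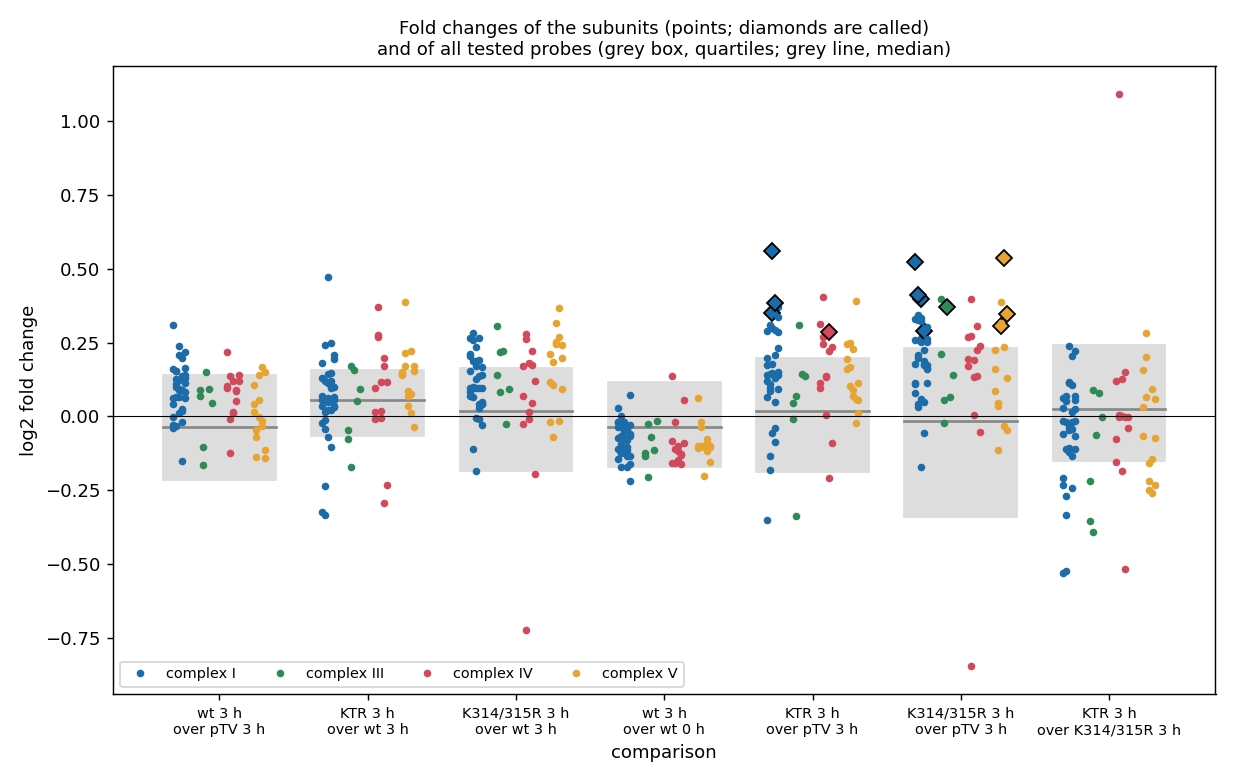
Log2 fold change of each of the 71 subunit genes in the 7 comparisons, coloured by complex. Diamonds are genes called by limma at an adjusted p under 0.05, and the grey box and line are the quartiles and the median of all tested probes. The diamonds stand in KTR over pTV (4) and in K314/315R over pTV (8).

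The 12 core subunits described here were *Ndufs1*, *Ndufs3*, *Ndufs7*, *Ndufs8*, *Ndufv1*, *Ndufv2*, *Uqcrc1*, *Uqcrc2*, *Uqcrfs1*, *Atp5a1*, *Atp5b* and *Atp5c1*. In K314/315R over pTV 3 of them were called, all higher, against 26% of all probes (12.5% higher). None was called in the other 6 comparisons, where 0 to 2 had an unadjusted p under 0.05. Their log2 fold changes with TNFα ran from -0.12 to 0.06, and those of wt over pTV from -0.07 to 0.24. The α and β subunits, *Atp5a1* and *Atp5b*, which form the catalytic head of ATP synthase, varied more by slide than by group. The range of the slide means over slides 1 to 3 was 0.56 for *Atp5a1* and 0.40 for *Atp5b*, against 0.24 and 0.17 for the range of the group means. In both, and in *Ndufv2* and *Ndufa8*, the slide 1 array was the highest of its group in all 4 groups. This held for 13 of the 62 genes with all values (21%, against 11.7% of all probes), and the slide range exceeded the group range in 22 (35.5% against 30.9%). KTR replicate 3 gave the lowest values of *Ndufb7* (4.38, against 5.01 to 5.35 on the other arrays) and *Ndufc1* (4.37, against 4.91 to 5.27), and neither gene was called.

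Several subunits of complex IV and the c subunit of ATP synthase have forms that are known for particular tissues. *Cox4i2*, the lung and hypoxia form, *Cox8b*, the form of heart and muscle, and *Cox8c*, the testis form, were not well above background on any of the 14 arrays. The ubiquitous forms *Cox4i1*, *Cox6a1*, *Cox6b1*, *Cox7a2*, *Cox7b* and *Cox8a* were well above background wherever they had a value, as were the muscle forms *Cox6a2* and *Cox7a1* and the testis form *Cox6b2*. Without a block, *Cox7b* did not pass the test over pTV in either mutant. Its differences were 0.40 ± 0.13 in KTR (adjusted p = 0.0582) and 0.40 ± 0.15 in K314/315R (adjusted p = 0.0636). With the replicate number as a block it was called by limma in both (adjusted p = 0.0268 and 0.0246). The numbers of K314/315R were not shown to pair with those of the other groups. *Cox7a1* differed by -0.52 between KTR and K314/315R (adjusted p = 0.244), and *Cox7a2l*, a factor of supercomplex assembly, by 0.22 in wt over pTV (adjusted p = 0.553). Of the 3 genes for the same mature c subunit, *Atp5g1* was 0.39 higher in KTR than in wt (adjusted p = 0.391), while *Atp5g2* and *Atp5g3* differed by 0.09 and 0.08. *Ndufa4*, which was first assigned to complex I and is now assigned to complex IV, was not called in any comparison. By its name it was left among the 35 genes of complex I in the counts given here.

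For 18 of the genes a further 22 probes could be tested. None was called in wt over pTV, in TNFα, or in either mutant over wt, as for the brightest probes. In KTR over pTV 2 of the 22 were called, all higher (9.27% of all probes were), and in K314/315R over pTV 4, all higher (12.5%). They were *Ndufa1* and *Atp5g2* in both comparisons, and *Ndufa7* and *Uqcrh* in K314/315R over pTV. The brighter probes of *Atp5g2*, *Ndufa7* and *Uqcrh* were not called, with 0.39, 0.26 and 0.21 in K314/315R over pTV, where the second probes gave 0.38, 0.39 and 0.39. The second probe of *Ndufa1* rose by 0.36 in K314/315R over pTV (adjusted p = 0.0216) and by 0.29 in KTR over pTV (adjusted p = 0.0485), where the brighter probe gave 0.52 and 0.29. The second probe of *Uqcrc1* gave 0.15 in K314/315R over pTV (adjusted p = 0.418), where the brighter gave 0.37. The second probe of *Ndufb8* gave 0.02 in each mutant over pTV, where the brighter gave 0.31 and 0.33.

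Of the other genes of the pathway, none of the 4 subunits of complex II was called in any comparison by limma, and 0 had an unadjusted p under 0.05. Among 16 assembly factors, *Foxred1* (log2 fold change 0.52), *Oxa1l* (0.45) and *Ndufaf1* (0.31) were called higher in K314/315R over pTV, and no factor was called in the other comparisons. Among 7 carriers, *Vdac3*, a channel of the outer membrane, was called higher over pTV in wt (0.66, adjusted p = 0.00405), in KTR (0.68) and in K314/315R (0.58), which share the pTV arrays. Among 11 regulators of mitochondrial biogenesis, *Ppargc1b*, a co-activator of nuclear subunit genes, was called higher in KTR over pTV (0.78) and over K314/315R (0.71). For these lists and those that follow, 9.27% of all probes were called higher in KTR over pTV and 12.5% in K314/315R over pTV. In either direction, 14.8% of all probes were called in wt over pTV and 5.41% in KTR over K314/315R. Of 75 mitochondrial ribosomal proteins, 2 were called higher in KTR over pTV and 2 in K314/315R over pTV, with medians of 0.06 in each. Of 85 cytosolic ribosomal proteins, which are also bright, 3 and 8 were called higher, with medians of 0.10 and 0.16. Of 38 proteasome genes, 7 were called higher in KTR over pTV, and 6 higher and 2 lower in K314/315R over pTV, with medians of 0.12 and 0.13. In each of these comparisons 3 of the proteasome genes were past 1.8-fold, with log2 fold changes of up to 6.17 and 5.88. None of 13 citrate cycle genes was called in any comparison, with medians of 0.05 and 0.10 over pTV and 0 to 2 genes per comparison at an unadjusted p under 0.05. These medians stand beside 0.14 and 0.19 for the 73 genes, and no test was made between the lists.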

How the data were processed

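Expression was measured on 14 one-colour Agilent Whole Mouse Genome arrays (Cy3). The deposited files are the authors' Feature Extraction output (9.1.1.1 on slides 1 to 3, 9.1.3.1 on slide 4), with an intensity per spot corrected for background but not scaled between arrays, and a table of normalized intensities, which equals these intensities times 1 factor per array (0.837 to 1.20). Outlier spots were removed, repeated spots averaged, and log2 values centred on the 75th percentile of the array. Of 41174 probes, 22172 were tested, those that were well above background throughout 1 or more groups. Groups were compared in 1 fit of all arrays in R 4.3.3 with limma 3.58.1 (two-sided, p adjusted by Benjamini-Hochberg across the tested probes), and a call is an adjusted p under 0.05. The number of arrays limits the precision, and p-values measure the spread between arrays. The code was tested on simulated data.

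The subunit genes and the gene lists were chosen with earlier results of these data known. Named are, per comparison, the 3 highest and 3 lowest called genes without overlap of arrays, the 5 genes with the smallest F test p, the core subunits and the tissue forms. One gene is not reported here by name. Genes named beyond these were chosen after their values were seen. Names are those of the array, matched to RefSeq (GRCm38.p6) by accession for 74 and by symbol for 2 of the 76.

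Deviations from the group means correlated between arrays with the same replicate number at 0.308 to 0.613 on slides 1 to 3, where the number is the slide (18 pairs), and at -0.510 to 0.0954 between other arrays (36 pairs), so the numbers pair these arrays. For K314/315R the same-number pairs lay between -0.101 and 0.411.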

Additional observations from a re-analysis of the deposited data

How the results depend on the processing

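Calls among the 73 genes were few and depended on the setting, while no called gene changed its direction. Between any of the 5 groups, 2 genes were called in the fit as reported, 0 after normexp, 0 after quantile normalization, 0 with no filter on dim probes, 7 with the slide as a random block, 11 with the replicate block, and 11 at an unadjusted p. For KTR over pTV (4 called), the counts were 0 after normexp, 2 after quantile normalization, 1 with no filter, 0 with only the arrays compared, 7 with the mean of a gene's probes, 13 with the random block, 12 with the replicate block, 14 with that block on slides 1 to 3 (chosen after seeing the data) and 16 unadjusted. For K314/315R over pTV (8 called), they were 0 after normexp, 3 after quantile normalization, 3 with no filter, 1 with only the arrays compared, 3 with the random block, 18 with the replicate block and 18 unadjusted. For wt over pTV (0 called), they were 2 with the random block, 1 with the replicate block, on all arrays or on slides 1 to 3, and 2 unadjusted. For KTR over wt (0 called), they were 1 with no filter and 6 unadjusted, for K314/315R over wt 11 unadjusted, and for KTR over K314/315R 2 with the replicate block and 7 unadjusted. The replicate block changed no other count by more than 1.5 times. Nor did a filter for clear signal on each of the 14 arrays (61 of the 73 genes, without those with a left-out spot). The authors' table gave the same counts, but this is no separate test. It holds the same intensities times 1 factor per array, which the centring removes.

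Leaving out each array in turn gave 0 to 7 for the F test, 0 to 5 for KTR over pTV (5 without KTR replicate 1, 2 of them lower), 0 to 10 for K314/315R over pTV, 0 to 2 for KTR over wt, 0 to 2 for KTR over K314/315R, and 0 in each fit for the other 3 comparisons. The median log2 fold change over the 73 genes after normexp reversed to -0.073 for wt over pTV and was 0.41 for KTR over wt, 0.36 for K314/315R over wt, -0.40 for TNFα, 0.34 for KTR over pTV and 0.27 for K314/315R over pTV. The bright probes moved alike, with -0.15, 0.42, 0.33, -0.38, 0.27 and 0.18 in the same order. After quantile normalization the median was 0.032 for wt over pTV, 0.077 for KTR over pTV and 0.11 for K314/315R over pTV.

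The slides and positions limit every comparison, and the cause of the differences between settings was not tested.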
